A study of Mus musculus with 12 samples.

Results

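The genes described are 9 members of the interferon and nucleic acid sensing pathway of the mouse, namely Ifih1 and Tlr9 (sensors), Irf3, Irf7, Irf1, Irf9 and Stat2 (transcription factors) and Isg15 and Ifit3 (interferon-stimulated genes). Chromatin accessibility at these genes was read from ATAC-seq, in which the transposase Tn5 cuts open chromatin and the cut fragments are sequenced and called as peaks. Peaks of all 12 libraries were merged where they shared at least 1 bp, and a merged region was assigned to a gene when it lay in the gene body or within 10 kb upstream of a transcription start site (GENCODE vM21, GRCm38). This gave 36 regions of the 9 genes, of 263785 regions in all. The libraries came from primary cortical neurons of wild type C57BL/6 embryos at embryonic day 18, all labelled as batch 1, with 3 libraries labelled as biological replicates in each of 4 groups. Neurons received PBS, or pre-formed fibrils of human wild type α-synuclein (PFF), for 7 days. The PFF+MLi-2 group received PFF and, for the last 5 days, MLi-2, which inhibits the kinase LRRK2. The PFF+Rab5 ASO group received PFF and, for the last 3 days, antisense oligonucleotides (ASO) against Rab5a and Rab5b, small GTPases of early endosomes. For MLi-2 and ASO libraries the description field names PBS where titles and design name PFF, and the titles were followed. None of the groups received a control oligonucleotide, or MLi-2 or ASO without PFF, so the presence of an oligonucleotide and the targeting of Rab5 cannot be told apart. The study's methods count each pregnancy as an independent replicate and divide its cultures among the groups, and no source used here says whether a replicate number marks the same pregnancy in every group.

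As background, cells detect foreign or misplaced nucleic acids with sensors such as MDA5, the product of Ifih1, which binds long double-stranded RNA in the cytosol, and TLR9, which binds DNA with unmethylated CpG in endosomes. Cytosolic sensors such as MDA5 signal through adaptors and the kinase TBK1 to IRF3 and IRF7, which switch on type I interferon genes. Secreted interferon acts through its receptor and Janus kinases on STAT proteins, of which STAT2 joins IRF9, and the complex binds the interferon-stimulated response element at genes such as Isg15 and Ifit3, whereas interferon gamma acts through STAT dimers on a different element, as at Irf1. Neurons express most of this machinery at low levels, and microglia are its main users in the brain.

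Peak height was compared as a percentile: the fold enrichment of the highest peak in a region was ranked among all peaks of the same library, so that 100 is the top of that library's list. A library with no peak in the region has no percentile and was set to 0 where all 12 libraries were compared. Of the 36 regions, 17 (47.2%) were called throughout the 12 libraries and 6 (16.7%) in 1 library only. Over all 263785 regions the corresponding shares were 27.5% and 26.6%. The number of member regions with a peak was 22 to 27 in PBS, 22 to 29 in PFF, 23 to 26 in PFF+MLi-2 and 22 to 26 in PFF+Rab5 ASO libraries, so the groups overlapped.

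The 250 bases before the start site are shown for 4 of the genes because they carry matches to the elements through which interferon acts. All 9 genes matched an entry of the RefSeq promoter table (GRCm38.p6). Capitals mark matches on either strand to GAAA followed after any 2 bases by another GAAA, the core of the interferon-stimulated response element (ISRE), and to TTCNNNGAA, the core of the element bound by STAT dimers. The stretches are chr4:156200819-156201068 (minus strand) for Isg15, chr19:34583279-34583528 (plus strand) for Ifit3, chr10:128270248-128270497 (plus strand) for Stat2 and chr11:53769764-53770013 (plus strand) for Irf1.
Isg15: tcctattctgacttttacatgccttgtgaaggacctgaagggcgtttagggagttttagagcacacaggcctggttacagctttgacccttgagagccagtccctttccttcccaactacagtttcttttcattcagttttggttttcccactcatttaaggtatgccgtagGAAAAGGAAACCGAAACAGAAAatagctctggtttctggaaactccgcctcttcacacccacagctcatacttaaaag
Ifit3: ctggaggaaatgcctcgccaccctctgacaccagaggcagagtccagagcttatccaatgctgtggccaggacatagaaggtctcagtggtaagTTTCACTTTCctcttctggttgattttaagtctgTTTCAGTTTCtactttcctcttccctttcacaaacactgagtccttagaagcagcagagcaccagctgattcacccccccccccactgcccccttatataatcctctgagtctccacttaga
Stat2: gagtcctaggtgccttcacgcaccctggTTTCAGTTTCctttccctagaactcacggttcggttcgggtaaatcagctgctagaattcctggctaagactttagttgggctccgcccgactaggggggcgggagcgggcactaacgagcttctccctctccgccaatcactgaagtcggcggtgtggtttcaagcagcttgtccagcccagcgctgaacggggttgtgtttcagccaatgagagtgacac
Irf1: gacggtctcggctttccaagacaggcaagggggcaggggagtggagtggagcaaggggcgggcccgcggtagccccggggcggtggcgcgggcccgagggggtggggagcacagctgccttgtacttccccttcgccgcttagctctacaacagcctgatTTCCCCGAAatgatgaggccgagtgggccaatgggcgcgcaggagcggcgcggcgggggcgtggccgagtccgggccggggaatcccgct

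In Isg15 the 3 matches to the ISRE core overlapped each other and began 78, 72 and 66 bases before the start site. Ifit3 had 2 matches, 156 and 122 bases before the start, and Stat2 had 1, 222 bases before it. Ifih1 had 1 match 33 bases into its first exon. The windows from 250 bases before to 50 after the start of Irf1, Irf3, Irf7, Irf9 and Tlr9 held no match, and the TTCNNNGAA match of Irf1 lay 90 bases before its start. Over 32817 promoters of this length, 3.43% held the ISRE core and 8.29% held TTCNNNGAA.

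Accessibility at the start sites fell into 3 levels (plot of the highest start-site peak by library). Stat2, Irf9, Irf1 and Irf3 had a peak within 1 kb of a start site in all 12 libraries and ranked at percentile 88.0 or above in each, Ifih1 and Irf7 had lower and more variable peaks in all 12, and Ifit3, Isg15 and Tlr9 had almost none. By percentile, the lowest, median and highest of the 12 libraries were 97.8, 99.4 and 99.7 for Stat2, 89.6, 92.6 and 97.7 for Irf9, 88.0, 90.8 and 93.8 for Irf1 and 88.5, 90.2 and 93.6 for Irf3. The ranges of Irf9, Irf1 and Irf3 overlapped, and that of Stat2 lay above all of them. For Ifih1 the values were 36.3, 71.6 and 84.8, and for Irf7 19.4, 44.6 and 59.8, which also overlapped. Ifit3 was called in 1 library, the second PBS replicate, at percentile 29.9, and Isg15 and Tlr9 had no peak within 1 kb of their start site in any library.

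**Figure D1:**
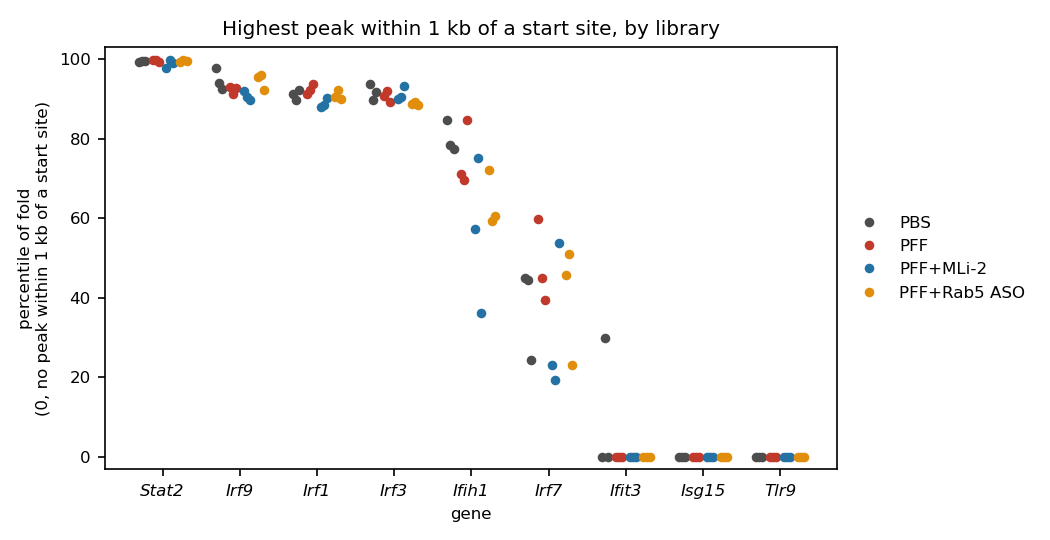
Percentile of the highest peak within 1 kb of a start site (vertical axis, 0 where there is no peak) for each of the 9 genes (horizontal axis). Each point is 1 library, coloured by group. Stat2, Irf9, Irf1 and Irf3 lie at 88.0 or above in all 12 libraries, and Ifit3, Isg15 and Tlr9 lie at 0 apart from 1 PBS library for Ifit3.

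The promoters of the 9 genes ranged from rich to empty in CpG. The ratio of observed to expected CpG in the 300-base promoter windows was 0.91 and 1.02 for the 2 Irf1 starts, 0.83 for Stat2, 0.82 for Ifih1, 0.71 for Irf3, 0.39 and 0.05 for the 2 Irf9 starts, 0.38 for Isg15, 0.31 for Irf7, 0.06 for Ifit3 and 0 for Tlr9, against a median of 0.38 over all promoters. A single region overlapped both promoter windows of Irf1, and another both of Irf9. Across all promoters, the median ratio was 0.78 where a region called in all 12 libraries overlapped the window and 0.21 where none did. Of promoters with the ISRE core, 29.5% were overlapped by a region called in all 12 libraries, against 42.7% of those without it. The motif matches of Irf1, Stat2 and Ifih1 lay inside regions called in all 12 libraries, and none of the 5 matches of Isg15 and Ifit3 lay inside a member region. These are descriptions across genes, which are not independent replicates.

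Among the sensors, Ifih1 had 12 of the 36 regions, of which 3 were called in all 12 libraries. The highest lay 8351 bp upstream of the start (chr2:62654606-62654826), with percentiles of 93.0, 94.6 and 93.2 in PBS, 97.2, 97.9 and 95.4 in PFF, 81.6, 89.7 and 94.9 in PFF+MLi-2 and 92.0, 88.2 and 96.0 in PFF+Rab5 ASO. The 3 PFF libraries were above the 3 PBS libraries, but the difference was not past the threshold (0.40, SE 0.21, in normal scores of the height rank, adjusted p = 0.591 by limma). An intronic region 2123 bp inside the gene (chr2:62643524-62644132) ran from 46.3 to 79.8 over the 12 libraries.

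The exonic region at the Ifih1 start (chr2:62645996-62646233) stood at 84.8, 78.4 and 77.3 in PBS, 71.2, 69.6 and 84.6 in PFF, 57.4, 75.0 and 36.3 in PFF+MLi-2 and 72.1, 59.3 and 60.6 in PFF+Rab5 ASO. Every PFF+Rab5 ASO library was below every PBS library, at means of 64.0 ± 7.03 and 80.1 ± 4.04 (SD, n = 3). The difference in height rank was -0.75 (SE 0.21), and its adjusted p of 0.0935 by limma was not past 0.05.

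The only member region gained or lost in any comparison lay 771 bp upstream of the Ifih1 start (chr2:62647026-62647226). It had a peak in all 3 PFF+Rab5 ASO libraries, at percentiles of 43.3, 19.0 and 35.9, and in none of the PFF libraries. It was also called in 1 PBS library at 42.3 and in 1 PFF+MLi-2 library at 12.2, so it was not particular to the ASO group. The peaks had 11 to 16 fragments at their summits, against medians of 16 to 18 over the peaks of each library. When every list was reduced to the same number of top peaks, or to peaks with a -log10 q of at least 5, this region was not gained. Its mean percentile was 32.8 in the ASO libraries and 6.06 in the other 9.

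Of the remaining Ifih1 regions, the intronic one 15509 bp inside the gene (chr2:62630528-62630746) had the largest difference in mean percentile between PFF+Rab5 ASO and the other 9 libraries, 27.5. Its percentiles were 57.4, 17.9 and 41.0 in PBS, 38.1, none and 26.7 in PFF, 19.8, none and 27.0 in PFF+MLi-2 and 54.9, 16.2 and 87.3 in PFF+Rab5 ASO. The ASO libraries spread over most of the range, and the groups overlapped. A further intronic region (chr2:62627889-62628020) was called in 3 of 3 PFF+Rab5 ASO, 2 PBS, 1 PFF and 1 PFF+MLi-2 libraries.

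Tlr9, the endosomal DNA sensor, had a single region (chr9:106226130-106226555), which lay inside an exon, 3532 bp after the start. It was called in all 12 libraries, at percentiles of 61.6, 21.5 and 61.5 in PBS, 15.1, 29.0 and 54.4 in PFF, 35.3, 53.0 and 45.1 in PFF+MLi-2 and 34.1, 35.6 and 24.8 in PFF+Rab5 ASO. The ASO values lay within the range of the others.

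Among the factors, the Irf3 start region (chr7:44997195-44997741) also covers the divergent start of Bcl2l12, a gene of the BCL2 family, so its height belongs to both genes. It ranked at 93.6, 89.6 and 91.7 in PBS, 90.7, 91.9 and 89.2 in PFF, 90.0, 90.4 and 93.2 in PFF+MLi-2 and 88.6, 89.2 and 88.5 in PFF+Rab5 ASO. The 3 ASO libraries were below the other 9, by 2.42 percentile points on average (p = 0.0273 by a two-sided exact permutation test, 0.172 after adjustment), and the height rank difference of -0.26 (SE 0.14) had an adjusted p of 0.283 by limma. A smaller region beside it (chr7:44997825-44997940) was called in 3 PBS libraries at 42.5, 51.6 and 9.17, 3 PFF libraries at 4.91, 26.6 and 16.6, 2 PFF+MLi-2 libraries at 3.07 and 8.26 and 1 PFF+Rab5 ASO library at 1.198. It was lost in PFF+Rab5 ASO against PFF and against PBS when every list was reduced to the same number of top peaks or when ASO replicate 2 was left out, and not with the full lists of all libraries. No share of all regions is given for these settings.

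Irf7, which interferon itself induces, had low peaks near its start. The region 246 bp into the gene (chr7:141266062-141266235) stood at 13.6, 44.4 and 21.3 in PBS, 59.8, 26.0 and 39.4 in PFF, 23.0, 19.4 and 53.7 in PFF+MLi-2 and 33.5, 45.5 and 14.3 in PFF+Rab5 ASO. The region 1129 bp in (chr7:141265171-141265352) stood at 45.1, 33.2 and 24.4 in PBS, 33.2, 44.9 and 9.31 in PFF, 11.96, 3.91 and 26.3 in PFF+MLi-2 and 5.32, 51.1 and 23.2 in PFF+Rab5 ASO. Neither region separated the groups. The region over the start itself (chr7:141266433-141266564) was called in 1 PBS library at 13.8, 2 PFF libraries at 2.10 and 19.2, no PFF+MLi-2 library and 2 PFF+Rab5 ASO libraries at 45.7 and 19.6. All groups overlapped.

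At Irf1, a factor induced by both interferon types, the start region (chr11:53769709-53770609) stood at 91.2, 89.6 and 92.3 in PBS, 91.3, 92.2 and 93.8 in PFF, 88.0, 88.6 and 90.1 in PFF+MLi-2 and 90.4, 92.1 and 90.0 in PFF+Rab5 ASO. The upstream region with the largest difference in the ASO group, 7790 bp before the start (chr11:53761848-53762224), stood at 66.3, 53.5 and 73.0 in PBS, 53.7, 54.8 and 56.5 in PFF, 63.4, 72.8 and 68.8 in PFF+MLi-2 and 62.4, 36.6 and 47.1 in PFF+Rab5 ASO. Its height rank differed by -0.48 (SE 0.18, adjusted p = 0.127 by limma) between PFF+Rab5 ASO and the other 3 groups. The ASO libraries overlapped those of PBS and PFF, and all 3 PFF+MLi-2 libraries were above them and above PFF.

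At Irf9, the DNA-binding partner of STAT2, the start region (chr14:55603933-55604361) stood at 97.7, 94.0 and 92.5 in PBS, 92.9, 91.2 and 92.8 in PFF, 91.9, 90.3 and 89.6 in PFF+MLi-2 and 95.5, 96.0 and 92.2 in PFF+Rab5 ASO. Its other region lies at the start of the neighbouring gene Rnf31 (chr14:55596104-55596320) and stood at 14.8, 43.7 and 23.3 in PBS, 35.7, 24.4 and 49.5 in PFF, 26.4, 42.9 and 17.7 in PFF+MLi-2 and 33.1, 35.2 and 47.3 in PFF+Rab5 ASO. Neither passed a threshold.

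Stat2 had the most accessible start of the 9 genes (chr10:128270229-128270909), at 99.4, 99.5 and 99.4 in PBS, 99.6, 99.7 and 99.3 in PFF, 97.8, 99.7 and 99.0 in PFF+MLi-2 and 99.3, 99.7 and 99.4 in PFF+Rab5 ASO, with all groups overlapping. A downstream alternative start had 2 regions, of which one (chr10:128284117-128284312) was called in all 12 libraries, at 65.2, 69.3 and 70.5 in PBS, 55.6, 48.0 and 64.8 in PFF, 65.1, 66.9 and 35.04 in PFF+MLi-2 and 70.9, 62.6 and 52.7 in PFF+Rab5 ASO. The PFF libraries lay below the PBS libraries there (-0.50, SE 0.26, adjusted p = 0.570 by limma). The other (chr10:128283984-128284088) was called in no PBS library, 2 PFF libraries at 15.4 and 46.8, 2 PFF+MLi-2 libraries at 42.3 and 24.5 and 1 PFF+Rab5 ASO library at 63.2.

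Away from the starts, 2 regions of Stat2, 32 bp apart, lie in a coding exon of 527 bp (chr10:128290504-128291030) and are described because the second had the smallest p of all member regions, a choice made after its values were seen. Part of this exon is a tandem repeat with a period of 24 bp, shown here from GRCm38.p6 (chr10:128290666-128290953, plus strand, 288 bases) with the 12 letters that recur most often in capitals.
Stat2 exon: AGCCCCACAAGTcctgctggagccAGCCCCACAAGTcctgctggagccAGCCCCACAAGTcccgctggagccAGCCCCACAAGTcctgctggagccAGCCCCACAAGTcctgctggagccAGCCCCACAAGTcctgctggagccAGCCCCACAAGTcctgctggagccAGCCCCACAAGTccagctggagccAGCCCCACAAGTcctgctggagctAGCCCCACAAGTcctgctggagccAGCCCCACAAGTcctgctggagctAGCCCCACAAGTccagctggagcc
The capital letters recur 12 times, always 24 bp apart, and the stretch is 96.6% identical to itself at that shift. The second region was 86.5% identical to itself at its best shift between 10 and 60 bp and the first 52.7%. The median over 72408 regions called in all 12 libraries on the main chromosomes was 32.2%, and 10 of them (0.0138%) reached 80%. How reads were placed within the repeat was not tested.

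The second exon region (chr10:128290789-128290982) ranked at 80.3, 87.8 and 69.5 in PBS, 48.8, 49.99 and 33.6 in PFF, 87.0, 92.0 and 88.8 in PFF+MLi-2 and 88.8, 61.2 and 71.0 in PFF+Rab5 ASO. All 3 PFF libraries were below the 9 others. The fragments at the summit numbered 11 to 13 in PFF, 17 to 25 in PBS, 27 to 31 in PFF+MLi-2 and 15 to 28 in PFF+Rab5 ASO. By limma on the height ranks, PFF differed from PBS by -1.39 (SE 0.27, adjusted p = 0.217), PFF+MLi-2 from PFF by 2.00 (SE 0.20, adjusted p = 0.124) and PFF+Rab5 ASO from PFF by 1.13 (SE 0.30, adjusted p = 0.0652). None of these passed 0.05, and the comparisons share the PFF libraries. With all 12 libraries in a single limma fit the PFF+MLi-2 difference passed, at an adjusted p of 0.0361.

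When peaks up to 50 bp apart were joined, so that the exon gave 1 region, the limma differences were -1.04 (PFF vs PBS, adjusted p = 0.447), 0.57 (PFF+MLi-2 vs PFF, adjusted p = 0.609) and 0.01 (PFF+Rab5 ASO vs PFF, adjusted p = 0.995). The first exon region alone (chr10:128290545-128290756) stood at 98.1, 87.4 and 96.5 in PBS, 95.2, 66.8 and 75.7 in PFF, 86.8, 91.7 and 89.9 in PFF+MLi-2 and 83.4, 82.3 and 74.3 in PFF+Rab5 ASO. The 3 ASO libraries were below the 3 PBS libraries, by -1.13 in height rank (SE 0.27, adjusted p = 0.0626 by limma), and with peaks of -log10 q of at least 5 the limma difference passed at an adjusted p of 0.0460. Relative depth was 0.775 to 0.919 in PFF, 0.912 to 0.976 in PBS, 0.957 to 1.03 in PFF+MLi-2 and 1.05 to 1.31 in PFF+Rab5 ASO libraries, and its part in these differences was not tested. In bulk libraries a smaller share of cells with an open site and a smaller share of the cell type that opens it cannot be told apart.

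**Figure D2:**
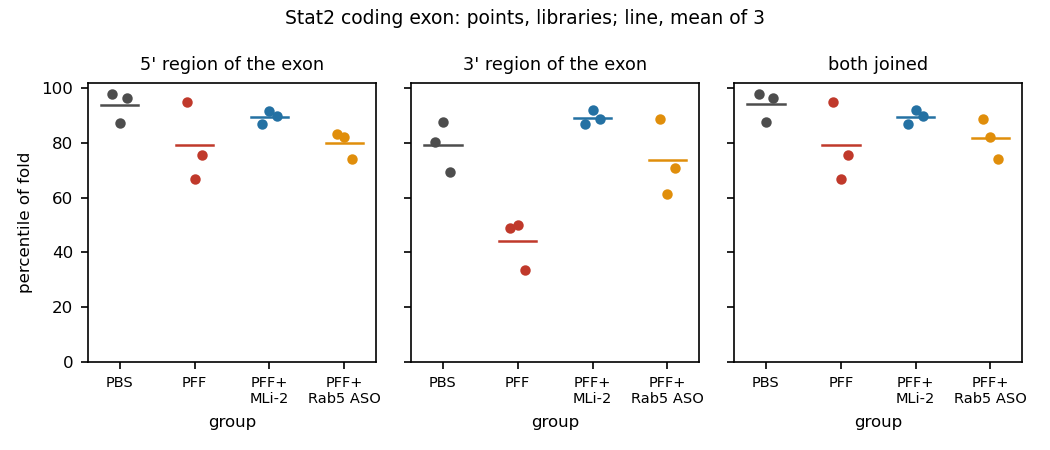
Percentile of fold (vertical axis) of the regions of the Stat2 coding exon in the 4 groups (horizontal axis), for the first (5′) region, the second (3′) region and both joined when peaks up to 50 bp apart were merged. Points are libraries and lines are means of 3. In the second region PFF lies at 33.6 to 49.99, below all 9 other libraries, and in the joined region the groups overlap.

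Of the interferon-stimulated genes, Isg15, a ubiquitin-like protein, had 2 regions, both upstream at the start of the neighbouring gene AW011738. The larger (chr4:156203016-156203404, 2198 bp before the Isg15 start) ranked at 86.8 to 94.6 in the 12 libraries. The smaller (chr4:156203478-156203723) ranked at 52.8, 14.8 and 21.8 in PBS, 21.2, 53.9 and 30.1 in PFF, 21.9, none and 5.57 in PFF+MLi-2 and 15.1, 12.4 and 3.595 in PFF+Rab5 ASO, and all 3 ASO libraries were below the 3 PFF libraries. It counted as lost in PFF+Rab5 ASO against PFF with equal numbers of top peaks and with peaks of -log10 q of at least 5. No share of all regions is given for this separation or for these settings, and nothing is read from them.

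Ifit3, whose product binds other proteins of the IFIT family, had 4 regions and none of them was called in all 12 libraries. Its start region (chr19:34583490-34583564) was the peak of the second PBS replicate given above. The region in an exon (chr19:34588443-34588648, 4912 bp after the start) was called in 2 PBS libraries at 17.9 and 17.7, in 3 PFF libraries at 76.9, 49.99 and 22.6, in 3 PFF+MLi-2 libraries at 48.0, 55.4 and 49.8 and in 2 PFF+Rab5 ASO libraries at 3.25 and 39.3. All PFF and all PFF+MLi-2 libraries were above all PBS libraries. Non-overlap over all regions was counted only where all 12 libraries had a peak. This separation has no share of all regions beside it, and nothing is read from it. The peaks held 9 to 19 fragments at the summit, and the region counted as gained in both groups against PBS with equal numbers of top peaks. No share of all regions is given for that setting.

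**Figure D3:**
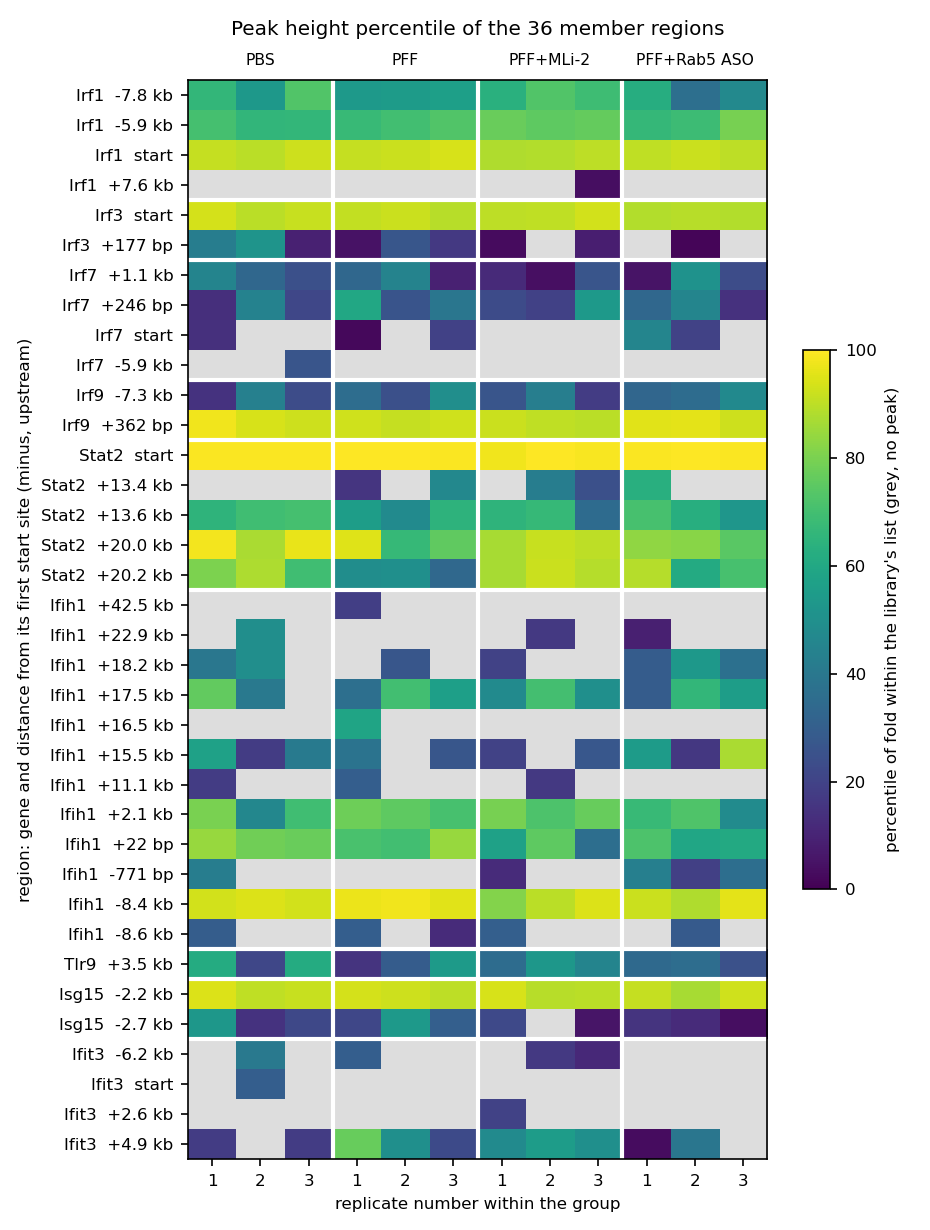
Percentile of fold (colour, grey where a library had no peak) for each of the 36 regions (rows, by gene and distance from its first start site) in the 12 libraries (columns, by group and replicate). The rows of the Stat2, Irf1, Irf3 and Irf9 starts are at 88.0 or above throughout, and 6 rows have a peak in 1 library.

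Over the 6 comparisons of groups, 1 member region was gained and none was lost. Against PFF, PFF+Rab5 ASO gained 1 of the 32 member regions with a peak in either group, where 2.64% of all such regions were gained, and lost 0, where 1.94% were lost. PFF gained and lost 0 of 34 against PBS (1.10% and 0.405% of all regions). PFF+MLi-2 gained and lost 0 of 34 against PFF (0.374% and 1.64%) and 0 of 34 against PBS (0.225% and 0.577%). PFF+Rab5 ASO gained and lost 0 of 32 against PBS (2.59% and 0.991%), and gained and lost 0 of 36 against the other 3 groups (1.14% and 0.183%).

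Among the 17 regions called throughout, the percentiles of some did not overlap between groups. Against PFF, PFF+MLi-2 was higher without overlap at 3 regions (2 upstream of Irf1 and the second Stat2 exon region, where 5.23% of all regions were) and lower at 2 (the Irf1 start and the upstream Ifih1 region, 12.9%). PFF+MLi-2 against PBS was higher at 1 (Irf1, 3.12%) and lower at 2 (the starts of Irf9 and Ifih1, 7.48%). PFF against PBS was higher at 1 (upstream of Ifih1, 8.25%) and lower at 2 (both in Stat2, 6.38%).

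The ASO group against PFF was higher without overlap at 1 region (the second Stat2 exon region, 13.9% of all regions) and lower at 1 (the Irf3 start, 11.9%). Against PBS it was higher at 0 (13.3%) and lower at 3 (the Irf3 start, the first Stat2 exon region and the Ifih1 start, 9.03%). Against the other 3 groups it was higher at 0 (5.34%) and lower at 1 (the Irf3 start, 2.47%). These comparisons share their PFF and PBS libraries.

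By limma on the height ranks of the 72465 regions called in all 12 libraries, 0 of the 17 member regions among them passed an adjusted p of 0.05 in any of the 6 comparisons. The shares of all regions past it were 1.97% higher and 1.86% lower for the ASO group against PFF, 1.0% and 0.631% against PBS, and 3.81% and 3.99% against the other 3 groups, and no region passed in the 3 comparisons without ASO, except that 56 did in PFF+MLi-2 vs PFF when all 12 libraries entered a single fit. At an unadjusted limma p under 0.05 there were 2 member regions in PFF vs PBS (11.8%, against 9.72% of all regions), 3 in PFF+MLi-2 vs PFF (17.6% against 11.4%), 2 in PFF+MLi-2 vs PBS (11.8% against 5.77%) and 2 in each ASO comparison (11.8% against 21.1% vs PFF, 18.7% vs PBS and 24.0% vs the other 3 groups). The median difference over the 17 regions was negative in each comparison, at -0.12 for PFF vs PBS (10 of 17 regions negative), -0.0042 for PFF+MLi-2 vs PFF (9), -0.11 for PFF+Rab5 ASO vs PFF (12), -0.06 for PFF+MLi-2 vs PBS (10), -0.22 for PFF+Rab5 ASO vs PBS (14) and -0.10 for PFF+Rab5 ASO vs the other 3 groups (12). Over all regions the medians were between -0.02 and 0.01, and the comparisons share libraries. Simulated ranks had 200 of the 72465 regions shifted. For PFF vs PBS a difference of 2 was recovered in 63% of these and a difference of 1 in 0%. The shares were 70.5% and 0% for PFF+Rab5 ASO vs PFF, and 93.5% and 37% for PFF+Rab5 ASO vs the other 3 groups. They depend on how many regions differ and need not hold in the data. From a test of read counts, the study reported regions that differed between PFF and PBS. The lack of calls for PFF vs PBS here is therefore not read as a lack of difference.

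The exact permutation test of the 3 ASO libraries against the other 9 covered the 30 member regions with a peak in at least 3 libraries. Its 220 splits allow no p below 0.00455, and the smallest adjusted p over all 167123 regions was 0.0649, so no region passed. At an unadjusted p under 0.05, 1 member region (3.33%) was lower in the ASO libraries, the Irf3 start, against 6.12% of all regions. The 1 member region that was higher, against 14.6% of all regions, was the one 771 bp upstream of Ifih1. It was called in 2 of the other 9 libraries and so entered the test through the ASO group, where it is high, and nothing is read from it. With regions called in at least 6 libraries, 1 of 23 member regions had an unadjusted p under 0.05.

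The wider pathway was read from 54 other genes with 288 regions, of which 86 (29.9%) were called in all 12 libraries. A start-site peak in all 12 libraries was present at 8 of 8 adaptors and kinases, 6 of 7 genes of the ligand, receptors and Janus kinases (all but Ifnb1, the interferon itself, which had none), 4 of 6 RNA sensors, 3 of 6 DNA sensors and clearance enzymes, 3 of 5 other IRF and STAT factors and 11 of 21 interferon-stimulated genes and regulators. Unc93b1, listed for endosomal trafficking of Toll-like receptors, had a start-site peak in 6 libraries. In all, 35 of the 54 (64.8%) had one in all 12 libraries, as did 6 of the 9 members (66.7%) and 63.2% of 21938 protein-coding genes. No library had a start-site peak at Ifit1, Oas1a, Ifitm3 or Ifi44, which are induced by interferon and were named after these values were seen. They are 19.0% of the interferon-stimulated genes and regulators, against 29.0% of all protein-coding genes with no start-site peak.

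**Figure D4:**
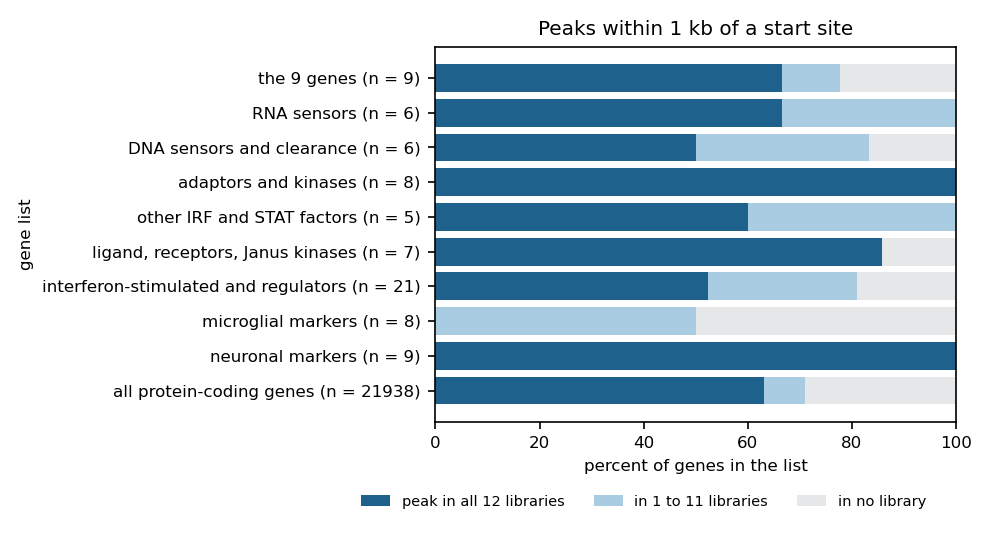
Percent of genes in each list (horizontal axis) with a peak within 1 kb of a start site in all 12 libraries, in 1 to 11, or in none. Rows are lists of genes by role, with neuronal and microglial markers and all protein-coding genes for comparison. Adaptors and kinases reach 100%, the 9 genes 66.7% and the interferon-stimulated genes and regulators 52.4%.

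Regions of 5 of these other genes past the limma threshold are described, all from comparisons with the ASO group. Of the 86 regions tested, 4 (4.65%) were higher and 1 (1.16%) lower in PFF+Rab5 ASO vs the other 3 groups, beside 3.81% and 3.99% of all regions. Against PFF 1 (1.16%) was higher and 2 (2.33%) lower, beside 1.97% and 1.86% of all regions. Against PBS 1 (1.16%) was higher and 0 lower, beside 1.0% and 0.631% of all regions. Percentiles in PFF+Rab5 ASO were above those of the other 3 groups without overlap at 3 of the 86 (3.49%), beside 5.34% of all regions. They were below without overlap at 1 (1.16%), beside 2.47%. The shares of higher regions were near or below those of all regions, so nothing particular to this pathway is read from the genes named. An intronic region of Ifit2 (chr19:34560508-34560790), an interferon-stimulated gene next to Ifit3, stood at 86.0, 92.3 and 86.2 in PFF+Rab5 ASO, against 76.0, 56.2 and 17.7 in PBS, 40.4, 66.8 and 68.2 in PFF and 54.6, 48.4 and 21.1 in PFF+MLi-2. The 3 ASO libraries were above the other 9, by 1.51 in height rank (SE 0.33, adjusted p = 0.0155 by limma). A region upstream of Ifit3b at the start of Ifit1bl1 (chr19:34598373-34598627) stood at 93.0, 92.3 and 93.2 in PFF+Rab5 ASO and at 62.0 to 87.9 in the others, a difference of 0.80 (SE 0.19, adjusted p = 0.0207 by limma).

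Regions of the signalling genes Ticam1 and Traf3 were also higher, with the ASO libraries above most or all others. They are counted in the shares given above, and no excess in signalling genes is read from them. A region 658 bp upstream of Ticam1, the adaptor of the RNA sensor TLR3 (chr17:56277444-56277641), stood at 57.9, 59.2 and 44.2 in PFF+Rab5 ASO and at 16.5 to 45.9 in the others (0.64, SE 0.15, adjusted p = 0.0216 by limma). One 3624 bp upstream of Traf3, a ubiquitin ligase of this pathway (chr12:111162292-111162746), stood at 72.1, 68.3 and 73.4 against 45.6 to 58.9 (0.60, SE 0.14, adjusted p = 0.0241 by limma). An intronic region of Adar, the RNA-editing enzyme that keeps self RNA from MDA5 (chr3:89723456-89723738), was lower in PFF+Rab5 ASO vs PFF, at 52.7, 51.4 and 44.9 against 82.7, 72.1 and 83.2 (-1.14, SE 0.22, adjusted p = 0.0284 by limma), and the PBS and PFF+MLi-2 libraries stood at 33.7 to 63.5.

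Each of these calls was lost when some library was left out. Without one ASO replicate the adjusted p by limma against the other 3 groups reached 0.0756 for Ifit2 without replicate 2, 0.0913 for Ifit3b without replicate 3, 0.106 for Ticam1 without replicate 2 and 0.125 for Traf3 without replicate 3. For Adar against PFF the call was kept in 1 of 6 leave-one-out fits, and the adjusted p reached 0.0829 without ASO replicate 3. On the percentile scale, without normal scores, the calls of Ifit2 (adjusted p = 0.108 by limma), Ifit3b (0.0887) and Adar (0.0658) were also lost. Ifit2 also passed limma against PFF (1.34, adjusted p = 0.0440), and Ifit3b against PBS (1.06, adjusted p = 0.0497, and 0.0840 with a replicate block), and both of these were lost in all 6 fits with a library left out.

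**Figure D5:**
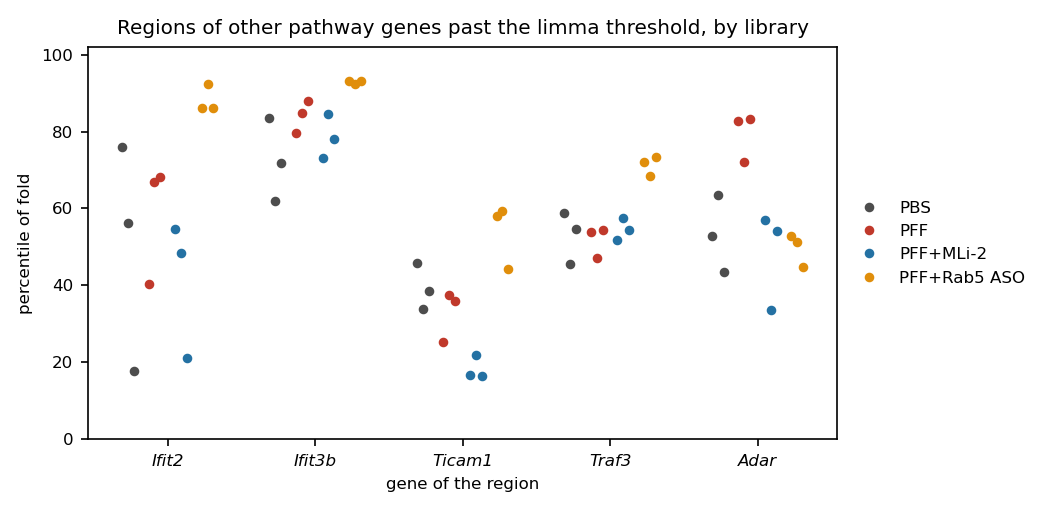
Percentile of fold (vertical axis) of 5 regions of other pathway genes past the limma threshold (horizontal axis), by library and group. The PFF+Rab5 ASO libraries lie above the other 9 for Ifit2, Ifit3b and Traf3, and those of Ticam1 stand at 44.2 to 59.2. Such a separation was found at 3.49% of the tested regions of other pathway genes and at 5.34% of all tested regions.

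The libraries of the ASO group stood apart in other ways. Their median peak width was 112 to 124 bp against 127 to 139 bp in the other 9, and the smallest 53 to 59 bp against 62 to 66 bp, beside the higher relative depth given above. The part of width and depth in the ASO comparisons was not tested. The antisense targets had start-site peaks in all 12 libraries, at 90.7 to 94.7 for Rab5a and 93.1 to 97.3 for Rab5b, which does not check the knockdown, since the oligonucleotides act on RNA. Of the cell type markers, 9 of 9 of neurons and 5 of 5 of astrocytes had a start-site peak in every library. The study's methods describe few cells positive for GFAP, an astrocyte marker, under its standard culture conditions. A start-site peak in every library was also present at 3 of 4 oligodendrocyte lineage and 2 of 4 vessel and fibroblast markers. Such a peak alone does not show that a cell type was present. None of the 8 microglial markers had one in all 12 and 4 of 8 had none. The number of microglial markers called was 1 to 3 in PBS, 3 in each PFF library, 1 to 3 in PFF+MLi-2 and 1 to 2 in PFF+Rab5 ASO, with summed percentiles of 7.62 to 82.6, 102.1 to 121.6, 2.14 to 99.6 and 19.2 to 71.6. The summed percentile of the 5 astrocyte markers was 295 to 340 in PBS, 251 to 273 in PFF, 298 to 331 in PFF+MLi-2 and 255 to 295 in PFF+Rab5 ASO. The sum of the 9 neuronal markers was 617.5 to 678.5 in PBS, 612 to 633 in PFF, 642 to 671 in PFF+MLi-2 and 628 to 660 in PFF+Rab5 ASO. The microglial sum was higher in all 3 PFF libraries than in the other 9, but its lowest PFF value, 102.1, was close to 99.6 in a PFF+MLi-2 library. The sums count a marker without a peak as 0, and no single microglial marker separated PFF from the other groups. Ptprc had no peak in PFF replicate 3, and Tmem119 was highest in a PFF+MLi-2 library, at 38.3. The astrocyte and neuronal sums of PFF were below those of PFF+MLi-2 and overlapped those of PFF+Rab5 ASO. The part of cell makeup in the values of the second Stat2 exon region was not tested.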

How the data were processed

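ATAC-seq peak lists of 12 libraries (4 groups of 3) were analysed. Per the study's methods and the submitters' processing notes, the authors used Trim Galore 0.6.7 for trimming, Bowtie2 2.5.1 for alignment (GRCm38) and called peaks per library with MACS2 2.2.7.1 without a control library. MACS2 options, duplicate handling and the Tn5 shift are not given in the sources used here, and each could change widths and heights. The deposited lists give a fold enrichment over local background (a ratio), -log10 p and -log10 q values, a score (not used further) and the summit offset. Fragment pileup and relative depth (the most common background divided by the smallest peak width, mean 1) were recovered from the deposited fold and -log10 p values.

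Peaks were merged (1 bp) and assigned to genes as stated in the report. A region was gained when all 3 libraries of the group named first had a peak and the other group had none, and lost in the reverse case, with no test. Height ranks were turned into normal scores and tested with limma 3.58.1 (R 4.3.3) with Benjamini-Hochberg adjustment over all 72465 regions. Two-sided exact permutation tests and all other steps used Python 3.11.15, numpy 2.4.6, pandas 2.3.3, scipy 1.17.1, Biopython 1.88 and matplotlib 3.10.9. The limma test was checked on simulated data for 3 of the 6 comparisons, and the permutation test on a smaller simulated table. Described with values were regions within 1 kb of a member's start, regions gained, lost or past a threshold, and each member's region with the largest difference between ASO and the other libraries. Members, lists and tests were chosen with earlier results of these data known. Alternatives were equal numbers of top peaks, a stricter threshold, other call rules, windows and fits, and each library left out. A region past a threshold is not reported here.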

Additional observations from a re-analysis of the deposited data

How the results depend on the processing

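Counts of member regions gained or lost are small and moved by 1 or 2 regions. For PFF vs PBS the count of 0 became 1 with equal numbers of top peaks (Ifit3) and when 2 of 3 libraries sufficed (Stat2), and ranged from 0 to 1 when a library was left out (1 without PFF replicate 2). For PFF+MLi-2 vs PFF it became 1 with at least 2 of 3 libraries (Irf7) and with peaks covering at least 50% of the region (Ifih1), and ranged from 0 to 1 (1 without PFF replicate 2). For PFF+Rab5 ASO vs PFF the 1 gained region became 2 lost regions with equal numbers of top peaks (Irf3 and Isg15) and 1 lost region with the stricter threshold (Isg15), and the count ranged from 1 to 2 (2 without PFF replicate 2 and without ASO replicate 2). For PFF+MLi-2 vs PBS it became 1 with equal numbers of top peaks, with the stricter threshold and with at least 2 of 3 libraries, and ranged from 0 to 1 (1 without PFF+MLi-2 replicate 1). For PFF+Rab5 ASO vs PBS it became 2, both lost, with equal numbers of top peaks and 1 with 50% cover, and ranged from 0 to 1 (1 without PBS replicate 1 and without ASO replicate 2). Against the other 3 groups it became 1 with 50% cover. The cause of these moves was not tested.

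The count of 0 member regions past the limma threshold became 1 in PFF+MLi-2 vs PFF with all 12 libraries in a single fit (Stat2, second exon region) and 1 for the ASO group against PBS with the stricter threshold (Stat2, first exon region), and stayed 0 in the other comparisons and settings run. Over the settings, adjusted p of the second Stat2 exon region ran between 0.141 and 0.467 for PFF against PBS, 0.0361 and 0.609 for PFF+MLi-2 against PFF, and 0.0533 and 0.995 for PFF+Rab5 ASO against PFF. Joining peaks up to 50 bp apart was added after the data were seen. Over all regions, the number past the limma threshold fell in PFF+Rab5 ASO vs PFF from 2772 to 233 on the percentile scale and to between 0 and 995 with a library left out, from 1184 to 0 and to between 0 and 35 against PBS, and from 5650 to 2379 and to between 1770 and 5283 against the other 3 groups. A single fit of all 12 libraries gave 56 in place of 0 for PFF+MLi-2 against PFF, and 1922 in place of 1184 for the ASO group against PBS.

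Replicate numbers were checked for pairing. Libraries of the same number correlated by 0.0051 to 0.0788, each best with its own number, which is a hint from the data. The study's methods divide the cultures of a pregnancy among groups but do not tie pregnancies to these numbers, so the block was kept as an alternative. With the replicate block 0 member regions passed in each comparison, and over all regions 1671 passed for the ASO group against PFF, 0 against PBS and 5727 against the other 3 groups. A median of 16 to 18 fragments at a summit and 3 libraries a group limit what could be detected.

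Adjusted p of the first Stat2 exon region ran between 0.0460 and 0.230, and of the Ifih1 start between 0.0766 and 0.228, for the ASO group against PBS.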
